A study of Mus musculus with 12 samples.

Results

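Mouse embryonic stem cells that cannot phosphorylate eIF2α were compared with wild-type (WT) cells in LIF/2i, the medium that holds the naive state of pluripotency. The comparison used 6 of the 12 libraries of the series: 3 of eIF2α A/A knock-in (KI) cells and 3 of eIF2α+/+ (WT) cells, chosen by their labels. Both groups had spent 6 days in serum-free medium with LIF, PD0325901 (an inhibitor of the kinase MEK) and CHIR99021 (an inhibitor of the kinase GSK3). The remaining 6 libraries, 3 of each genotype after 6 days in LIF without the inhibitors, served only as separate libraries in which the same genes could be read. RNA came from the cleared lysate of cells washed in cycloheximide and was depleted of ribosomal RNA. Neither the number of lines or clones behind a genotype nor whether replicates were separate cultures is given in the labels, so p-values reflect only how far these libraries vary, which may be technical. The study's stated question was how eIF2α phosphorylation controls the naive state.

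eIF2 is the factor that brings the initiator tRNA to the ribosome. Stress kinases phosphorylate its α subunit, encoded by Eif2s1, on a serine that the A allele replaces with alanine. Phosphorylation slows general protein synthesis while translation of Atf4, a transcription factor of amino acid and redox genes, goes up, and Ppp1r15a and Ppp1r15b direct a phosphatase back to eIF2α. In embryonic stem cells the MEK inhibitor blocks the ERK pathway that promotes differentiation, and the GSK3 inhibitor stabilises β-catenin, the effector of Wnt signalling.

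Library totals were 3234713 to 7738055 counts in WT and 6305690 to 9713857 in KI, and a floor of 3 counts in a library equalled 0.304 to 0.914 CPM (counts relative to the library total, here scaled by TMM factors of 0.971 to 1.02). KI replicate 1 stood apart from the other KI libraries. On the first principal component, which held 45.1% of the variance, the WT libraries lay at -26.1, -23.7 and -37.7, KI replicate 1 at 2.28, and KI replicates 2 and 3 at 31.3 and 53.9. Y-linked transcripts separated the libraries too: they summed to 261, 44.8 and 259 CPM in the WT libraries and to 41.6, 1.86 and 1.43 CPM in the KI libraries. Genotype and whatever else differs between these WT and KI cells cannot be told apart. The counts carry no reading of the point mutation and do not check the genotype labels.

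The 250 bases upstream of the RefSeq start site nearest the start of the counted transcript (RefSeq, GRCm38.p6, strand of the gene, 5′ to 3′, CpG dinucleotides in capitals) are shown for 2 genes with the lowest and 2 with the highest fold changes among the named called genes averaging at least 5 CPM: Myo7a (7, 98119494 to 98119743, minus strand), Naalad2 (9, 18397539 to 18397788, minus strand), Myo1f (17, 33555457 to 33555706, plus strand) and Lin28a (4, 134018817 to 134019066, minus strand).
Myo7a: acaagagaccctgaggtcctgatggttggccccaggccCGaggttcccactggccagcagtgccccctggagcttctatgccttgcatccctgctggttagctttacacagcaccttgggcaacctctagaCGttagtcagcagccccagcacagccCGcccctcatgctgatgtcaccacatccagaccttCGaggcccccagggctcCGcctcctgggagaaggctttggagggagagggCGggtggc
Naalad2: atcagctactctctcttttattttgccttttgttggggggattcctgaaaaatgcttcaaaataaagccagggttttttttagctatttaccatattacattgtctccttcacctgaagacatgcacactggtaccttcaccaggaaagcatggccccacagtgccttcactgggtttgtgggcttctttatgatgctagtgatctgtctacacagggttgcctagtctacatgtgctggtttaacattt
Myo1f: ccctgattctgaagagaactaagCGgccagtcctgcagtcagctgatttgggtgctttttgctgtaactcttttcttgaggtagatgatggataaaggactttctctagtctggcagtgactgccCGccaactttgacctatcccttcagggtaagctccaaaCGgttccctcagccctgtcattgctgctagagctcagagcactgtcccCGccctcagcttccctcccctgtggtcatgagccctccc
Lin28a: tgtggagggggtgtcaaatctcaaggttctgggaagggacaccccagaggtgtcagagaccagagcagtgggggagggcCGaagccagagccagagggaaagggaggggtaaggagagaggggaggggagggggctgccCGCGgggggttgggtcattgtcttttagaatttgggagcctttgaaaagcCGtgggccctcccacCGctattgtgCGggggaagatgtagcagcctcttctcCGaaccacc
The counted Naalad2 transcript starts inside the gene interval given below, so its window lies within that interval. The Naalad2 window held 0 CpG, a count shared by 0.726% of the 9499 promoters matched to tested genes. Myo1f held 4, Myo7a 6 and Lin28a 7, and 8.65%, 13.9% and 16.6% of promoters held as few. The TCF/LEF word CTTTGAA, searched on both strands, occurred in the Lin28a window and in 3.01% of all promoters. The CRE word TGACGTCA and the ATF4 composite word TGATGNAA, present in 2.70% and 1.71% of promoters, occurred in none of these 4 windows. Promoters were matched for 49 of the 65 genes called below, under 80%, so a check over the whole set is void.

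Of 22416 genes in the table, 12309 passed the count filter and were tested. KI and WT differed for 65 of them (0.528%) by edgeR's quasi-likelihood test at a Benjamini-Hochberg adjusted p below 0.05. In KI cells 29 genes (0.236%) were higher and 36 (0.292%) lower, and 29 and 35 of these changed over 2-fold. At an unadjusted p below 0.05 there were 2066 genes (16.8%). DESeq2 called 552 (4.16%) and limma-voom 26 (0.211%). All counts of called list members below are read beside the share of all genes called by the same tool, 0.528% for edgeR. A single called gene is not taken as a result about its list. In all 65 called genes the 3 KI values lay entirely on one side of the 3 WT values, which was so for 23.3% of all genes tested. The median log2 fold change of all tested genes was 0.01, and the biological coefficient of variation was 0.255.

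**Figure D1:**
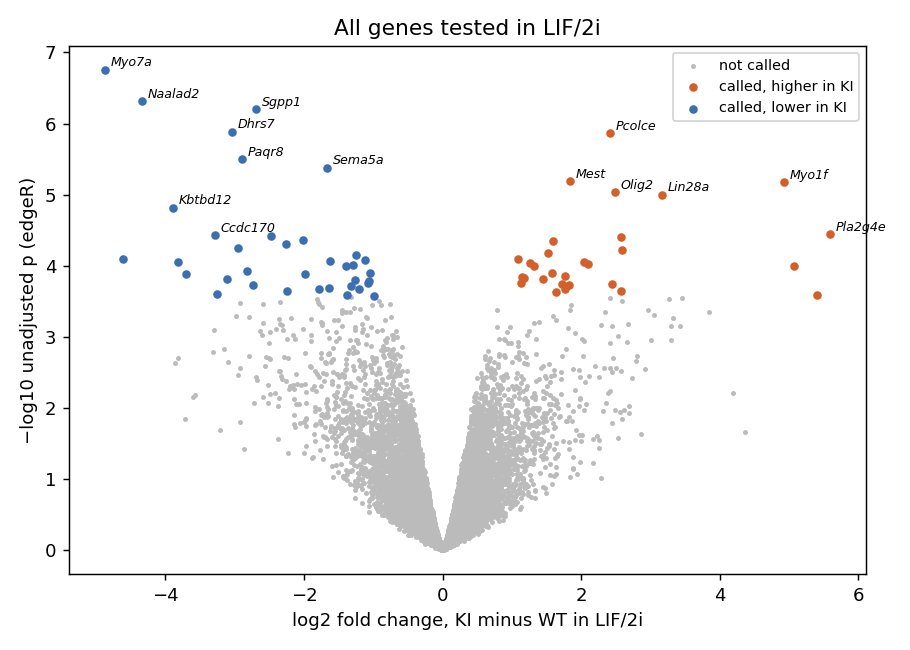
Log2 fold change, KI minus WT in LIF/2i, against −log10 of the unadjusted edgeR p for each of the 12309 genes tested. Coloured points are the 29 genes called higher and 36 called lower, and the 14 with the smallest p are named, with Myo7a and Naalad2 at the far left.

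The number of genes called changed with the library left out. Each such fit also had 1 library fewer, and the cause of the changes was not tested. Without KI replicate 1 the test called 778 of 12517 genes (6.22%), 325 higher and 453 lower, and all 65 genes were among them. Fits that lacked WT replicate 1, 2 or 3 called 2, 3 and 2 higher and 6, 10 and 9 lower genes. Fits that lacked KI replicate 2 or 3 called 4 and 8 higher and 7 and 7 lower genes. Myo7a, Naalad2, Sgpp1, Dhrs7, Pcolce, Paqr8 and Sema5a were called whichever library was left out. The other 58 lost their call in at least 1 of those fits. Of these, 45 lost it in each of the 5 that lacked a library other than KI replicate 1. All 65 kept their direction, which the lack of overlap between their groups all but fixed, so this is no added support. For these 58 the highest adjusted p with 1 library left out ran from 0.058 to 0.201, and it is given below beside the adjusted p of each gene described singly. Where no tool is named below, a called gene is one of these 65 by edgeR.

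Cytoskeletal motors and actin regulators were found among the called genes of both directions. Myo7a (chromosome 7, 98051060 to 98119524, GRCm38), an unconventional myosin of hair bundles and retina, had 80.8, 71.7 and 62.8 CPM in the WT libraries and 1.22, 2.93 and 3.44 CPM in the KI libraries. The KI values were all a small fraction of the lowest WT value. Its log2 fold change was -4.87 ± 0.35 (SE, n = 3 per group, edgeR adjusted p = 0.00217). Myo1f (chromosome 17, 33555707 to 33607764), a single-headed myosin best known from leukocytes, went the other way, from 1.07, 0.259 and 1.83 CPM in WT to 37.8, 27.2 and 19.6 CPM in KI (log2 4.93 ± 0.54, edgeR adjusted p = 0.00913, and 0.0703 without WT replicate 1). In WT replicate 2 the Myo1f level was under that library's floor of 0.389 CPM. Tmsb4x, encoding the actin-sequestering peptide thymosin β4, rose from 27.5, 23.6 and 23.2 to 52.4, 49.3 and 60.9 CPM (log2 1.13 ± 0.19, edgeR adjusted p = 0.0431, up to 0.171). These were the 3 called of 53 tested genes in the list of actin cytoskeleton and unconventional myosins, against 0.528% of all genes. The list's median log2 fold change was 0.13, and DESeq2 called 7 of its genes and limma-voom 2 (Myo7a and Myo1f). Dnah12, an axonemal dynein heavy chain of motile cilia, fell from 25.2, 24.5 and 28.3 to 7.71, 10 and 7.53 CPM (log2 -1.62 ± 0.24, edgeR adjusted p = 0.0355, up to 0.15), the called member of 16 dyneins. None of 55 primary cilium genes was called by edgeR, DESeq2 or limma-voom. Their median was 0.14, and 5 had an unadjusted p below 0.05 (9.09%, against 16.8% of all genes).

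Several lower genes encode enzymes and receptors of lipid, steroid and peptide metabolism. Naalad2 (chromosome 9, 18321951 to 18402995), a membrane peptidase that releases glutamate from acetylated dipeptides, fell from 45.4, 37.9 and 46 to 2.84, 2.32 and 0.982 CPM (log2 -4.33 ± 0.35, edgeR adjusted p = 0.0026). Sgpp1 (chromosome 12, 75714249 to 75735729), the phosphatase that removes phosphate from sphingosine-1-phosphate, fell from 55, 56.4 and 64.3 to 10.8, 8.9 and 7.2 CPM (log2 -2.69 ± 0.22, edgeR adjusted p = 0.0026). It was the called member of 26 sphingolipid genes, whose median was -0.03. Paqr8 (chromosome 1, 20890606 to 20939650), a membrane progestin receptor, fell from 22.1, 26.8 and 23.5 to 4.06, 2.8 and 2.78 CPM (log2 -2.89 ± 0.29, edgeR adjusted p = 0.00654).

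Dhrs7 (chromosome 12, 72650353 to 72664909), a short-chain dehydrogenase with retinoid and steroid substrates, fell from 27, 26.8 and 35.1 to 3.75, 4.02 and 2.95 CPM (log2 -3.03 ± 0.27, edgeR adjusted p = 0.00339). Aox3, an aldehyde oxidase, fell from 121, 116 and 58.2 to 26.3, 20.6 and 14.6 CPM (log2 -2.26 ± 0.32, edgeR adjusted p = 0.0325, up to 0.147). WT replicate 3 was the lowest WT library for Aox3 and still above every KI library, as the choice of named genes required. Both belong to the class of aldehyde and short-chain dehydrogenases, where 2 of 40 tested genes fell, none rose by the same edgeR test, and the median was -0.20. Rara, the nuclear receptor for retinoic acid, rose from 40.8, 40.7 and 43.9 to 77.2, 96.5 and 93.1 CPM (log2 1.09 ± 0.16, edgeR adjusted p = 0.0355, up to 0.15). Of 12 retinoic acid genes, Rara rose and Dhrs7 fell, and the median was -0.08. Without KI replicate 1, 5 of 15 were called (33.3%, against 6.22% of all genes), namely Rara, Stra8, Crabp2 and Stra6 higher and Dhrs7 lower. The count filter was applied anew in that fit, so 15 rather than 12 were tested. Low genes could pass it through the remaining KI libraries alone, so this share is no support for a change of the list.

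Semaphorins, a procollagen enhancer and an integrin were called singly. Sema5a (chromosome 15, 32244810 to 32696341) and Sema5b encode related transmembrane semaphorins, guidance cues for axons. Sema5a fell from 126, 133 and 143 to 38.6, 50.8 and 37.6 CPM (log2 -1.66 ± 0.17, edgeR adjusted p = 0.0074). Sema5b rose from 4.89, 5.97 and 7.62 to 18.2, 33.4 and 26.4 CPM (log2 2.10 ± 0.32, edgeR adjusted p = 0.0355, up to 0.15). They were the called members of 23 semaphorins, plexins and neuropilins. Pcolce (chromosome 5, 137605103 to 137613784), which enhances the trimming of procollagen, rose from 19.7, 15.3 and 12.8 to 71.9, 96.3 and 89.9 CPM (log2 2.42 ± 0.22, edgeR adjusted p = 0.00339). Itga3, the α3 integrin subunit that binds laminin, rose from 31.2, 30.1 and 37.5 to 137, 82.5 and 74.8 CPM (log2 1.58 ± 0.25, edgeR adjusted p = 0.0408, up to 0.164). It was the called member of 19 integrins, whose median was -0.03, and Itga9 lay at 1.53, 2.33 and 4.27 CPM in WT and 15.7, 14.4 and 9.0 CPM in KI without passing (adjusted p = 0.0607).

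Vwf, von Willebrand factor, a blood-clotting glycoprotein made by endothelial cells, fell from 118, 96.5 and 177 to 32.1, 41 and 23.4 CPM (log2 -2.01 ± 0.28, edgeR adjusted p = 0.0303, up to 0.105). Ceacam10, a member of the carcinoembryonic antigen family, fell from 52.2, 38.1 and 15.2 to 5.78, 5.61 and 3.44 CPM (log2 -2.83 ± 0.44, edgeR adjusted p = 0.0408, up to 0.153). Hs3st3b1, a heparan sulfate sulfotransferase, fell from 7.79, 11 and 11.9 to 1.62, 2.8 and 1.96 CPM (log2 -2.25 ± 0.38, edgeR adjusted p = 0.0467, up to 0.171). The WT libraries spread most for Ceacam10, where WT replicate 3 was the lowest. Plekhg1 fell from 107, 144 and 122 to 35.4, 13.4 and 17.5 CPM (log2 -2.48 ± 0.34, edgeR adjusted p = 0.0303, up to 0.118). Reads of Ceacam10 and Tmsb4x may be shared with near copies in the genome, and how the authors treated such reads is not given in the sources used here.

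**Figure D2:**
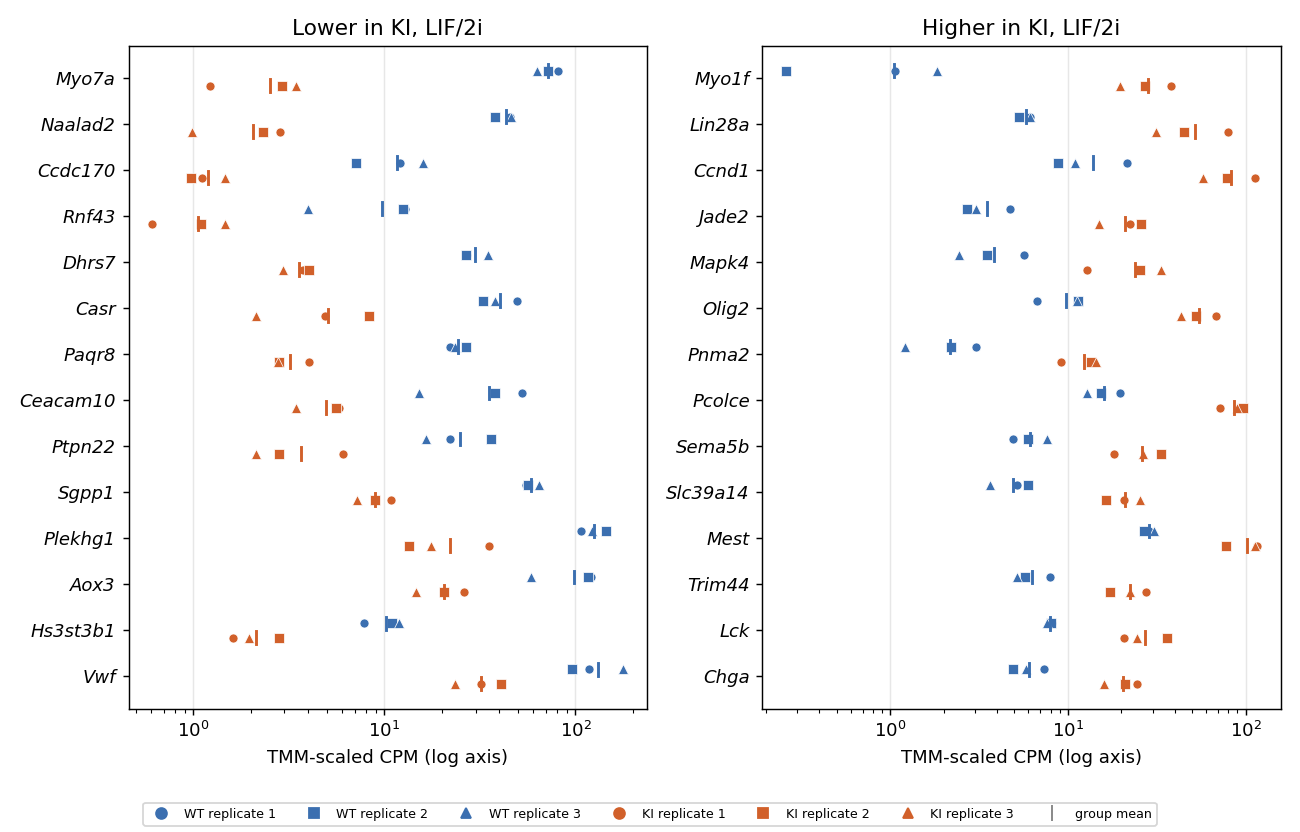
TMM-scaled CPM on a log axis of the 14 lower and 14 higher genes with the largest fold changes among called genes averaging at least 5 CPM, predicted genes such as BC035947 left out, in each of the 3 WT (blue) and 3 KI (orange) libraries in LIF/2i, with vertical bars at group means. KI and WT points do not overlap in any of these genes, as the choice of genes required.

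Lin28a, Ccnd1, Olig2 and Mest were called singly, all higher in KI cells. Lin28a (chromosome 4, 134003330 to 134018841), which blocks maturation of the let-7 microRNA, rose from 6.11, 5.32 and 6.1 to 79.7, 45.1 and 31.4 CPM (log2 3.16 ± 0.36, edgeR adjusted p = 0.0113, up to 0.0806). The WT libraries were nearly level for Lin28a, and KI replicate 1 was the highest KI library. Its paralogue Lin28b lay at 1.68, 1.17 and 1.83 CPM in WT and 3.45, 8.05 and 14.1 CPM in KI, short of the threshold (log2 2.46 ± 0.57, edgeR adjusted p = 0.1). Of 34 microRNA and m6A genes edgeR called 1 (Lin28a), DESeq2 3 (Igf2bp1, Lin28a and Lin28b) and limma-voom 0. With KI replicate 1 left out, edgeR called 2, Lin28a and Lin28b, in a fit that called 6.22% of all genes. Ccnd1, cyclin D1, which drives entry into S phase, rose from 21.5, 8.82 and 11 to 113, 78.8 and 57.9 CPM (log2 2.59 ± 0.37, edgeR adjusted p = 0.0351, up to 0.111). Olig2, a transcription factor of oligodendrocyte and motor neuron precursors, rose from 6.72, 11.4 and 11.3 to 67.8, 52.6 and 43 CPM (log2 2.48 ± 0.28, edgeR adjusted p = 0.0113, up to 0.058). Mest, an imprinted gene expressed from the paternal allele, rose from 28.6, 26.8 and 30.5 to 116, 77.3 and 113 CPM (log2 1.84 ± 0.20, edgeR adjusted p = 0.00913, up to 0.0743). Of 8 neuroectoderm markers 4 were tested, and none was called by edgeR, DESeq2 or limma-voom or had an unadjusted p below 0.05. Among them Nes, an intermediate filament of neural progenitors, spread over 23.4, 20.2 and 56.4 CPM in WT and 9.73, 53.5 and 70.2 CPM in KI.

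Of the stem cell identity genes, Utf1 passed the test. Pou5f1, which encodes the core pluripotency factor Oct4, stood at 857, 863 and 932 CPM in WT and 1047, 1029 and 785 CPM in KI (log2 0.11 ± 0.15, edgeR adjusted p = 0.742). Sox2, its partner, stood at 597, 583 and 763 and 456, 588 and 391 CPM (log2 -0.44 ± 0.19, adjusted p = 0.283). Nanog had 443, 459 and 546 CPM in WT and 551, 623 and 669.8 CPM in KI, with no overlap but no call (log2 0.35 ± 0.15, adjusted p = 0.277). Esrrb was at 476, 463 and 402 and 654, 514 and 506 CPM (log2 0.32 ± 0.15, adjusted p = 0.334). Zfp42 was at 71.9, 54.6 and 62.2 and 55.5, 51.5 and 64.7 CPM (log2 -0.14 ± 0.18, adjusted p = 0.716). Utf1, a chromatin-bound factor of pluripotent cells, rose from 170.0, 175 and 179 to 443, 508 and 307 CPM (log2 1.26 ± 0.19, edgeR adjusted p = 0.0355, up to 0.15). It was 1 called of 10 stem cell markers, 7 of which lay above 0 with a median of 0.22. All 10 markers were detected in every library.

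Receptors, kinases and a phosphatase of cell signalling were called singly. Rnf43, a ubiquitin ligase that removes Wnt receptors from the surface, fell from 12.8, 12.4 and 3.96 to 0.608, 1.1 and 1.47 CPM (log2 -3.25 ± 0.56, edgeR adjusted p = 0.0496, up to 0.191). WT replicate 3 was low for Rnf43, yet above every KI library, as the choice of named genes required. Casr, the calcium-sensing receptor, fell from 49.3, 32.9 and 38.1 to 4.87, 8.29 and 2.13 CPM (log2 -2.95 ± 0.42, edgeR adjusted p = 0.0349, up to 0.147). Lck, a Src-family kinase of T cells, rose from 8.09, 8.04 and 7.62 to 20.7, 36.2 and 24.4 CPM (log2 1.77 ± 0.28, edgeR adjusted p = 0.0414, up to 0.164). Ptpn22, a tyrosine phosphatase known for acting on Lck in T cells, fell from 22.1, 36.2 and 16.5 to 6.08, 2.8 and 2.13 CPM (log2 -2.74 ± 0.46, edgeR adjusted p = 0.0431, up to 0.161). Mapk4, an atypical MAP kinase, rose from 5.65, 3.5 and 2.44 to 12.8, 25.4 and 33.2 CPM (log2 2.57 ± 0.44, edgeR adjusted p = 0.0467, up to 0.171). KI replicate 1 was the lowest KI library for both Lck and Mapk4.

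Sensors of nutrients and foreign RNA were also among the called genes. Castor1, the arginine sensor that restrains mTORC1 when arginine is scarce, fell from 57.1, 60.9 and 59.4 to 32.2, 25.2 and 26.7 CPM (log2 -1.07 ± 0.18, edgeR adjusted p = 0.0431, up to 0.183). It was 1 called of 41 mTOR genes, whose median was 0.05. Deptor, an mTOR inhibitor, lay at 56, 52.3 and 58.8 CPM in WT and 34.8, 31.8 and 34 CPM in KI (log2 -0.73 ± 0.16, adjusted p = 0.0962), and the Rag GTPase gene Rragb at 2.6, 1.95 and 1.52 and 4.87, 25.6 and 31.4 CPM (log2 3.30 ± 0.66, adjusted p = 0.0711). Without KI replicate 1, 5 of 41 were called (12.2%, against 6.22% of all genes): Rragb higher, and Castor1, Deptor, Sesn2 and Mtor lower. Ddx58, which encodes RIG-I, a sensor of viral RNA, rose from 33.6, 27.1 and 27.1 to 66.8, 56.9 and 71.5 CPM (log2 1.15 ± 0.18, edgeR adjusted p = 0.0417, up to 0.171). By edgeR it was 1 called of 18 tested interferon response genes, whose median was -0.16. DESeq2 called 2 (Ddx58 higher and Bst2 lower) and limma-voom 0. Slc39a14, a zinc and iron importer, rose from 5.19, 5.97 and 3.66 to 20.7, 16.5 and 25.4 CPM (log2 2.04 ± 0.31, edgeR adjusted p = 0.0355, up to 0.15). By edgeR it was 1 called of 10 zinc and metallothionein genes and of 232 solute carriers, where DESeq2 called 1 and 16 and limma-voom 0 and 0. Mt2, a metal-binding metallothionein, spread from 59.7, 62.9 and 53 CPM in WT to 34.4, 109.9 and 480.1 CPM in KI and was not called (edgeR adjusted p = 0.27). With KI replicate 1 left out, 3 of the 10 zinc and metallothionein genes were called (30%, against 6.22% of all genes), Mt2, Slc30a1 and Slc39a14, all higher.

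Further named genes came from scattered functions. Jade2, a chromatin adaptor of a histone acetyltransferase, rose from 4.73, 2.72 and 3.05 to 22.3, 25.7 and 15.1 CPM (log2 2.57 ± 0.35, edgeR adjusted p = 0.0303, up to 0.13). Trim44, a TRIM family protein, rose from 7.94, 5.71 and 5.18 to 27.7, 17.2 and 22.4 CPM (log2 1.82 ± 0.30, edgeR adjusted p = 0.0431, up to 0.171). Chga, the chromogranin A of secretory granules, rose from 7.33, 4.93 and 5.79 to 24.4, 20.9 and 15.9 CPM (log2 1.76 ± 0.30, edgeR adjusted p = 0.0453, up to 0.171). Pnma2, derived from a retrotransposon and known as a neuronal antigen, rose from 3.05, 2.2 and 1.22 to 9.12, 13.5 and 14.4 CPM (log2 2.45 ± 0.40, edgeR adjusted p = 0.0431, up to 0.171). In each of these 4 the KI libraries did not overlap WT, as the choice of named genes required.

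Tnfrsf19, a receptor of the TNF family, fell from 43.7, 42.3 and 40.5 to 17.3, 21.7 and 15.9 CPM (log2 -1.20 ± 0.20, edgeR adjusted p = 0.0453, up to 0.198). Rab11fip1, an effector of recycling endosomes, fell from 217, 190.4 and 211 to 128, 91.7 and 91.3 CPM (log2 -0.99 ± 0.17, edgeR adjusted p = 0.0497, up to 0.199). Ccdc170 fell from 12.1, 7.13 and 15.9 to 1.12, 0.975 and 1.47 CPM (log2 -3.28 ± 0.44, edgeR adjusted p = 0.0303, up to 0.135). Tex101, a surface protein of germ cells, was at 5.19, 7.91 and 11.3 CPM in WT and at or near the floor in KI, at 0.203, 0.854 and 0.655 CPM (edgeR adjusted p = 0.0355, up to 0.137). By edgeR it was 1 called of 40 tested genes of the germline class, where DESeq2 called 4 (Dazl, Tex101, Syce1 and Mael) and limma-voom 0.

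Some called genes were near the floor in one group and are given by level. Fgf17, a ligand of FGF receptors, was at 0, 0.259 and 0.305 CPM in WT and 3.35, 9.51 and 6.38 CPM in KI (edgeR adjusted p = 0.0355, up to 0.149). Vrtn, known for its effect on vertebral number in pigs, was at 0, 0 and 0.305 and 3.95, 3.9 and 1.8 CPM (adjusted p = 0.0496, up to 0.199). Pla2g4e, a cytosolic phospholipase A2, was at 0, 0.259 and 0 and 6.39, 4.51 and 7.86 CPM (adjusted p = 0.0303, up to 0.135). These 3 were detected in every KI library and at or under the floor in every WT library. In the other direction, Sash3, a lymphocyte adaptor, was at 7.33, 5.19 and 3.35 CPM in WT and 0.203, 0.366 and 0 CPM in KI (adjusted p = 0.0355, up to 0.15). Slamf6, a receptor of lymphocytes, was at 6.26, 2.72 and 6.1 and 0.507, 0.366 and 0.164 CPM (adjusted p = 0.0408, up to 0.164). Kbtbd12, a Kelch protein, was at 5.65, 6.22 and 5.49 and 0.406, 0.244 and 0.491 CPM (adjusted p = 0.0156, up to 0.0903). These 6 genes were picked with their values in view.

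The remaining 20 called genes changed in the same non-overlapping way. Higher were Pla2g1b, Ccdc91, Armcx2, Uchl1, Ptgis, Fundc2 and Inava, with log2 fold changes from 1.17 for Uchl1, a neuronal ubiquitin hydrolase, to 1.72 for Fundc2. Lower were Hook3, Marc2, Ankrd45, Med12l, Hgsnat, Podxl, BC035947, Kalrn, Pramef12, Ostm1, Ccdc136, Npl and Ppp2r2c, from -1.04 for Hgsnat, a lysosomal acetyltransferase, to -3.11 for BC035947. Their edgeR adjusted p ran from 0.0303 for Pla2g1b to 0.0497 for Ppp2r2c, and all 20 lost their call in at least 1 fit without a library, with a highest adjusted p from 0.135 for Pla2g1b to 0.201 for Ppp2r2c. Podxl, a sialylated surface protein of stem cells and podocytes, fell from 39.1, 33.3 and 69.8 to 10.1, 14.4 and 11.1 CPM (log2 -1.98 ± 0.31, edgeR adjusted p = 0.0408, up to 0.153). Marc2, a mitochondrial amidoxime reductase, fell from 215, 190.5 and 158 to 98.1, 80.6 and 82 CPM (log2 -1.11 ± 0.17, edgeR adjusted p = 0.0355, up to 0.164).

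The 65 genes were then read in the LIF libraries, which the test had not used. Whether the same lines lie behind both media is not given in the labels. Y-linked transcripts were at 165, 77.6 and 156 CPM in the WT LIF libraries and 36.7, 2.17 and 3.90 CPM in KI LIF. WT replicate 2 and KI replicate 1 thus stood apart within their genotypes, as in LIF/2i. The LIF libraries may share lines or cultures with the LIF/2i libraries, so agreement between the media may not be independent. In WT LIF, the counts of replicates 1 and 3 agreed within sampling noise (chi-square per degree of freedom 0.858, against 11.8 for replicates 1 and 2). In the KI minus WT difference this pair entered as 1 sample, by its average. Overlap was read with all 3 WT LIF libraries kept separate. The KI minus WT difference had the same sign in LIF for 60 of the 65 (92.3%), against 66.4% of all genes tested. For 45 (69.2%) the LIF groups did not overlap, in the same direction, against 21.7% of all genes tested. Differences in LIF are of mean log2 (CPM + 0.5), which understates changes of low genes, and were not tested.

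Individual genes differed in how they read in LIF. Myo7a had 34.3, 35.9 and 30.8 CPM in the WT LIF libraries and 5.29, 6.43 and 5.52 CPM in KI. Ccnd1 stood at 13.4, 13.6 and 11.7 and 96.5, 94.4 and 110.0 CPM. Sema5a stood at 39, 59 and 40.6 and 6.69, 9.54 and 11 CPM. In these 3 the genotypes did not overlap in LIF either. Lin28a was instead high in both genotypes in LIF, at 74.4, 136 and 71.9 CPM in WT and 163, 92.9 and 131 CPM in KI, with overlapping groups. Mest was likewise high, at 176, 331 and 179 and 386, 302 and 312 CPM. Casr was low in both, at 1.13, 1.05 and 2.02 and 1.06, 0.415 and 0.85 CPM. For these 3 the genotypes overlapped in LIF.

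Signs differed between the media for 5 genes, Paqr8, Sash3, Tmsb4x, Ccdc136 and Tnfrsf19, and their groups overlapped in LIF. Paqr8 was at 3.4, 3.46 and 2.96 CPM in WT LIF and 4.23, 4.77 and 2.55 CPM in KI LIF. Tmsb4x was at 129.7, 139 and 137 and 142, 76.1 and 92.2 CPM, where its highest value was in KI replicate 1. Whether the genotype difference of any gene depended on the medium was not tested here.

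**Figure D3:**
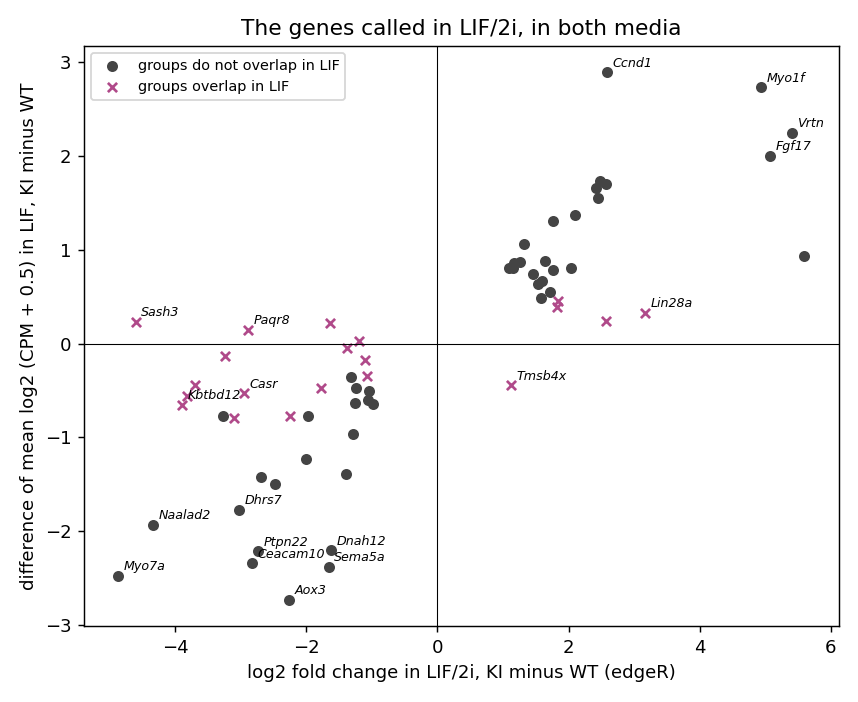
Each of the 65 genes called in LIF/2i by its edgeR log2 fold change there (x axis) and its difference of mean log2 (CPM + 0.5) in LIF (y axis), both KI minus WT. Circles mark genes whose groups do not overlap in LIF and crosses the others. 60 genes lie in the lower left and upper right quadrants, and Paqr8, Sash3 and Tmsb4x are among the 5 outside them.

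No eIF2 subunit, kinase or phosphatase gene was called. Eif2s1 (chromosome 12, 78861819 to 78887010), which encodes the mutated subunit, stood at 27, 22.7 and 25.9 CPM in WT and 30.1, 43.2 and 56.1 CPM in KI (log2 0.77 ± 0.25, edgeR adjusted p = 0.192). KI replicate 1 lay just above WT, and without it Eif2s1 was called (log2 0.98, adjusted p = 0.0321). Eif2s2, the β subunit, ran from 94.5, 104 and 69.5 CPM in WT to 48, 96.1 and 153 CPM in KI, with both extremes in KI libraries (log2 0.14 ± 0.36, adjusted p = 0.874). Eif2s3x, the X-linked γ subunit, stood at 27.2, 21.1 and 20.4 and 20.9, 24.5 and 30.3 CPM (log2 0.13 ± 0.24, adjusted p = 0.809). Its reads may be shared with its near-identical Y-linked copy Eif2s3y, which differed between these libraries.

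Of the 4 kinases, Eif2ak3, encoding the endoplasmic reticulum kinase PERK, had 73.8, 73.4 and 79.3 CPM in WT and 30.9, 51.8 and 49.8 CPM in KI (log2 -0.77 ± 0.21, edgeR adjusted p = 0.145). Eif2ak2, encoding the double-stranded RNA kinase PKR, had 16.3, 20.6 and 21 and 32.2, 24.5 and 41.1 CPM (log2 0.76 ± 0.25, adjusted p = 0.194). Eif2ak1, the haem-regulated kinase, had 72.7, 80.4 and 69.2 and 88.8, 84.9 and 93.1 CPM (log2 0.26 ± 0.15, adjusted p = 0.394). The groups did not overlap for these 3, as for 23.3% of all genes, but none was called. Eif2ak4, encoding the amino acid sensor GCN2, had 129.7, 115 and 153 and 86.6, 126 and 118 CPM (log2 -0.27 ± 0.19, adjusted p = 0.493) and overlapped. Eif2ak3 passed with DESeq2 (log2 -0.77, adjusted p = 0.0408) and with all 12 libraries in 1 edgeR fit (log2 -0.78, adjusted p = 0.0435), but not when the agreeing WT LIF pair described above was averaged in that fit (log2 -0.77, adjusted p = 0.0728).

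Downstream, Atf4 had 249, 252 and 214 CPM in WT and 242, 344 and 372 CPM in KI (log2 0.42 ± 0.18, edgeR adjusted p = 0.287). Ddit3, encoding the stress factor CHOP, was low at 5.5, 5.97 and 7.01 and 3.04, 6.34 and 3.27 CPM (log2 -0.53 ± 0.40, adjusted p = 0.528). Ppp1r15a stood at 53, 40.3 and 46.9 and 37, 64.9 and 68.7 CPM (log2 0.28 ± 0.25, adjusted p = 0.597). Ppp1r15b stood at 189.5, 194 and 173 and 148, 222 and 219 CPM (log2 0.08 ± 0.18, adjusted p = 0.851). For Atf4 and both phosphatase subunits, KI replicate 1 was the lowest of the KI libraries and KI replicates 2 and 3 lay above all WT values.

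Over the whole list of eIF2, eIF2B, kinases and phosphatases, 0 of 22 tested genes were called by edgeR, 1 by DESeq2 (Eif2ak3) and 0 by limma-voom. In that list 4 had an unadjusted p below 0.05 (18.2%, against 16.8% of all genes), and the median was 0.11. Over transcription factors and feedback genes of the stress response, 0 of 16 were called by edgeR, 2 by DESeq2 (Ddit4 and Stc2) and 0 by limma-voom. Of these 16, 4 had an unadjusted p below 0.05 (25%, against 16.8% of all genes), and the median was -0.23. The smallest p in that list belonged to Stc2, a secreted glycoprotein, at 5.65, 2.46 and 14.3 CPM in WT and 0.608, 1.59 and 1.15 CPM in KI (log2 -2.69 ± 0.70, adjusted p = 0.121). Ddit4, an mTORC1 inhibitor induced by stress, had 69, 48.8 and 126 and 41.9, 13 and 16.4 CPM (log2 -1.75 ± 0.48, adjusted p = 0.138). Sesn2, a leucine sensor, had 147, 131 and 127 and 111, 38.2 and 54.5 CPM (log2 -0.99 ± 0.34, adjusted p = 0.201). For both Ddit4 and Sesn2, KI replicate 1 lay nearest to WT. Without it Ddit4 and Sesn2 were called lower, 2 of 16 (12.5%, against 6.22% of all genes), and the list median became 0.07.

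**Figure D4:**
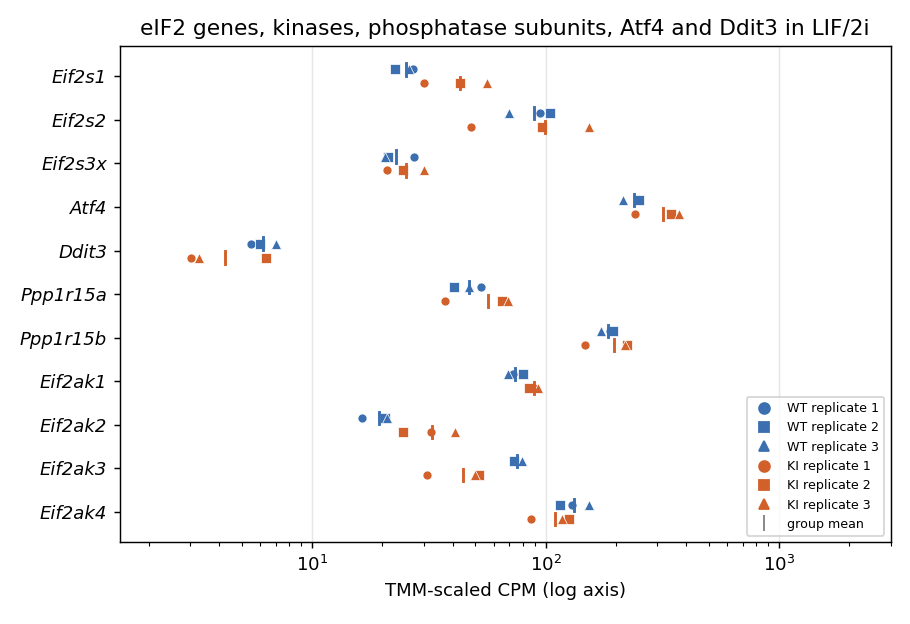
TMM-scaled CPM on a log axis of eIF2 subunit genes, Atf4, Ddit3, phosphatase subunits and eIF2α kinases in each WT (blue) and KI (orange) library in LIF/2i, with vertical bars at group means. For Eif2s1, Eif2ak1, Eif2ak2 and Eif2ak3 the groups do not overlap, and none of the 11 genes passed the test.

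Genes of ribosome production lay above 0 nearly throughout while none passed singly. Of 50 ribosome biogenesis genes 47 had a positive log2 fold change, with a median of 0.34 against 0.01 over all genes, and 21 did not overlap between groups (42.0%, against 23.3% of all genes). By edgeR 0 were called, by DESeq2 2 (Heatr1 and Rrp12) and by limma-voom 0, and 15 had an unadjusted p below 0.05 (30%, against 16.8% of all genes), all higher. Relative to the WT mean the list's median was 0.10, 0.03 and -0.11 in the WT libraries and 0.16, 0.40 and 0.45 in the KI libraries. Heatr1, a factor of the small subunit processome, stood at 474, 453 and 357 CPM in WT and 606, 709 and 751 CPM in KI (log2 0.69 ± 0.16, edgeR adjusted p = 0.1). Rrp12, a ribosomal subunit export factor, stood at 126, 131 and 113 and 160.4, 213 and 184 CPM (log2 0.59 ± 0.16, adjusted p = 0.13). Bysl, needed for small subunit maturation, stood at 66, 76.4 and 58.2 and 94.7, 117 and 96.7 CPM (log2 0.62 ± 0.17, adjusted p = 0.142). Nucleolin, from Ncl, stood at 1155, 955 and 761 and 1273, 1246 and 1808 CPM (log2 0.59 ± 0.20, adjusted p = 0.207). Without KI replicate 1, Heatr1, Rrp12 and Polr1a were called higher, 3 of 50 (6.00%, against 6.22% of all genes).

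Related lists also had medians above 0, and edgeR and limma-voom called none of their genes. Of 44 tRNA modification genes 33 lay above 0 (median 0.27), 18 did not overlap (40.9%, against 23.3% of all genes), 9 had an unadjusted p below 0.05 (20.5%, against 16.8% of all genes) and 1 was called by DESeq2 (Trmt13). Osgep, of the complex that makes the t6A base, stood at 36.2, 46.4 and 35.7 CPM in WT and 62, 61.3 and 57.9 CPM in KI (log2 0.61 ± 0.18, edgeR adjusted p = 0.157). Trmt13, a tRNA methyltransferase, stood lower in KI, at 19.7, 44.3 and 31.4 and 19.3, 6.71 and 11.1 CPM (log2 -1.36 ± 0.42, adjusted p = 0.181). Of 16 chaperonin CCT and prefoldin genes 15 lay above 0 (median 0.13), with Cct7 at 415, 441 and 416 and 617, 576 and 543 CPM (log2 0.45 ± 0.13, adjusted p = 0.16). Of 30 mitochondrial import genes 26 lay above 0, with a median of 0.20, and 2 did not overlap (6.67%, against 23.3% of all genes). In each of the latter 2 lists 2 genes had an unadjusted p below 0.05 (12.5% and 6.67%, against 16.8% of all genes) and DESeq2 called 0. WT replicate 3 had the lowest median of the 6 libraries in each of these 3 lists.

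Apoptosis and clock genes lay mostly below 0. Of 29 BCL2 family and caspase genes 19 were below 0, with a median of -0.24, and 12 did not overlap between groups (41.4%, against 23.3% of all genes). Mcl1, a survival factor of the BCL2 family, stood at 407, 531 and 613 CPM in WT and 293, 308 and 291 CPM in KI (log2 -0.80 ± 0.17, edgeR adjusted p = 0.0805). Pmaip1, which encodes the pro-death protein Noxa, stood at 69.5, 39.4 and 64.9 and 34.3, 10.1 and 26.4 CPM (log2 -1.29 ± 0.41, adjusted p = 0.184). Apaf1, the scaffold of the apoptosome, stood at 227, 218 and 306 and 204, 111 and 106 CPM (log2 -0.83 ± 0.26, adjusted p = 0.187). KI replicate 1 was the KI library nearest WT for Pmaip1 and Apaf1. By edgeR and limma-voom none of the 29 was called, by DESeq2 3 were (Mcl1, Pmaip1 and Casp6), and 12 had an unadjusted p below 0.05 (41.4%, against 16.8% of all genes), 11 of them lower. Without KI replicate 1, Mcl1, Apaf1, Pmaip1, Casp9, Bok and Bbc3 were called lower, 6 of 29 (20.7%, against 6.22% of all genes). Mcl1 is known to oppose cell death, whereas the other 5 are known to promote it.

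Of 18 circadian clock genes 14 were below 0, with a median of -0.43. By edgeR and limma-voom none was called, by DESeq2 2 were (Csnk1e and Bhlhe40), 6 had an unadjusted p below 0.05 (33.3%, against 16.8% of all genes), all lower, and 8 did not overlap (44.4%, against 23.3%). Csnk1e, a kinase that marks period proteins for turnover, stood at 182, 164 and 238 CPM in WT and 113, 107 and 81.2 CPM in KI (log2 -0.95 ± 0.19, edgeR adjusted p = 0.0732). Nr1d1, a clock repressor, stood at 27, 17.6 and 18.3 and 8.21, 13 and 14.1 CPM (log2 -0.84 ± 0.30, adjusted p = 0.221). Bhlhe40, a repressor also known to respond to hypoxia, stood at 54.1, 14.5 and 69.2 and 9.83, 11.3 and 16.9 CPM (log2 -1.85 ± 0.50, adjusted p = 0.138), where WT replicate 2 lay among the KI values. WT replicate 3 had the highest list median (0.26, against -0.07 and -0.15 in WT replicates 1 and 2 and -0.36, -0.49 and -0.51 in KI). Without WT replicate 3 the list median was -0.21.

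**Figure D5:**
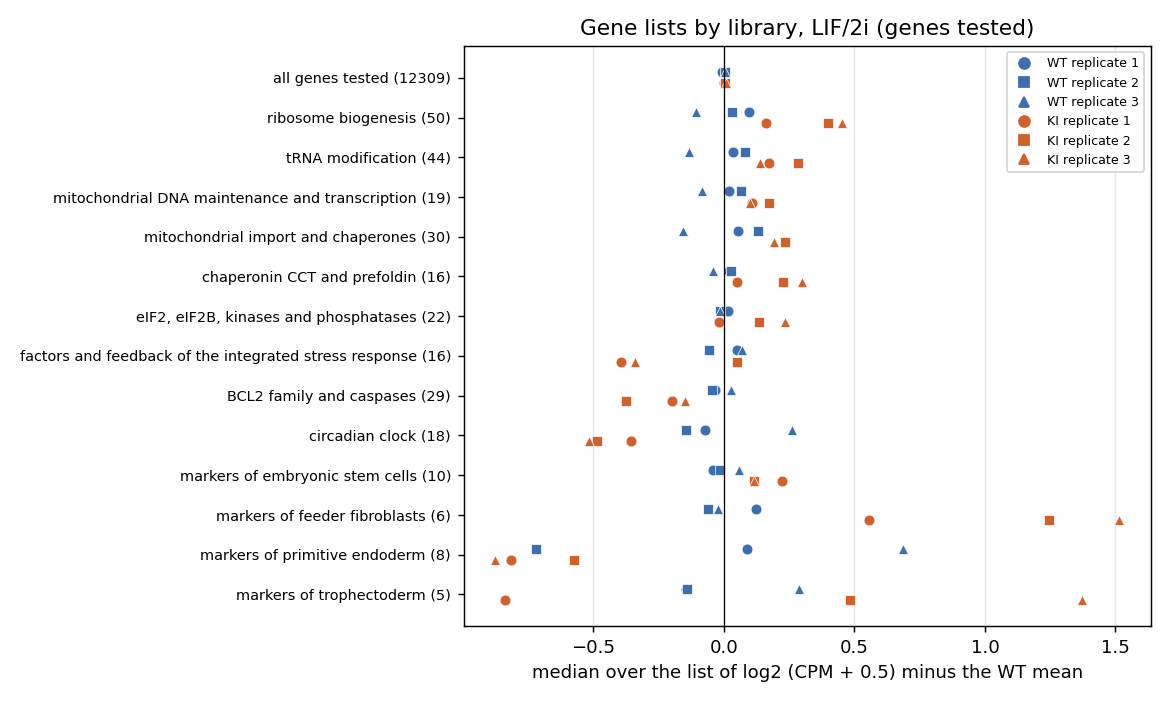
For each list, the median over its tested genes (number in parentheses) of log2 (CPM + 0.5) minus the WT mean, in each WT (blue) and KI (orange) library in LIF/2i. Ribosome biogenesis medians are higher and circadian clock medians lower in all 3 KI libraries than in all 3 WT libraries, while KI replicate 1 lies nearest WT in the ribosome biogenesis list and the fibroblast markers spread widely among KI libraries.

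Feeder fibroblast markers lay higher in all KI libraries than in all WT libraries by their list median. These markers had 6 of 12 genes tested, all 6 above 0 with a median of 1.26 and none called by edgeR or limma-voom. DESeq2 called 2 (Col1a1 and Tagln), and 4 had an unadjusted p below 0.05 (66.7%, against 16.8% of all genes). Groups did not overlap for 5 of the 6 (83.3%, against 23.3% of all genes). The list's medians were 0.12, -0.06 and -0.02 in the WT libraries and 0.55, 1.25 and 1.51 in KI. Col1a1, the main fibroblast collagen chain, was at 1.37, 1.69 and 3.05 CPM in WT and 4.97, 8.66 and 10.3 CPM in KI, and Tagln, a smooth muscle actin-binding protein, at 0.153, 0.648 and 0.914 and 1.82, 2.56 and 25.7 CPM. A marker low in WT could pass the count filter through the KI libraries alone, as the Tagln values show. The number above 0, the median and the shares without overlap and at an unadjusted p below 0.05 are tilted upward by this. None of these, nor the DESeq2 calls, is added support for a difference in these markers. In the other lists, too, low genes could pass through only the group where they are high. Whether fibroblasts were present in any library was not tested, nor was any part of them in the other results. In bulk RNA, fewer cells of a type and less RNA per cell cannot be told apart.

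Primitive endoderm markers had 1 of 8 tested genes above 0 and a median of -0.74. None was called by edgeR, DESeq2 or limma-voom, and 3 had an unadjusted p below 0.05 (37.5%, against 16.8% of all genes). Gata6, a defining factor of that lineage, was at 4.58, 3.37 and 3.66 CPM in WT and 1.42, 1.95 and 0.818 CPM in KI. WT replicate 2, with a list median of -0.72, lay among the KI libraries (-0.82, -0.57 and -0.88), and Col4a1 was at 13.4, 7.78 and 129.8 CPM in WT and 16.7, 7.07 and 7.04 CPM in KI, where WT replicate 3 alone was high. Trophectoderm markers had 5 tested genes and a median of 0.92, with none called by edgeR, DESeq2 or limma-voom and 0 at an unadjusted p below 0.05. In KI their list medians ran from -0.84 in replicate 1 to 1.37 in replicate 3. Without KI replicate 3 the median over this list was 0.21. Of 2 tested mesendoderm markers, Eomes and Gsc, neither was called by any of these tools or had an unadjusted p below 0.05.

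Over all 96 lists and classes with a tested member, 78 had no gene called by edgeR, 14 had 1, 3 had 2 and 1 had 3, the cytoskeletal list above. Of the 65 called genes, 44 belonged to none of the lists. The large classes mostly lay near the median of all genes: 357 zinc finger Zfp genes had a median of 0.09 and 73 histone genes of -0.03. EdgeR and limma-voom called none in either, and DESeq2 called 8 and 1. At an unadjusted p below 0.05 there were 37 and 2 (10.4% and 2.74%, against 16.8% of all genes). Chromosome 12, which carries Eif2s1, had 4 of 424 tested genes called (0.943%, against 0.528% of all genes). Sgpp1 lay 3.13 megabases, Vrtn 5.75 and Dhrs7 6.20 megabases from Eif2s1, and Chga 23.7. Chromosome 1 had 8 of 678 (1.18%). The 7 tested Y-linked genes had a median log2 fold change of -3.21 and none was called by edgeR. WT replicate 2 and KI replicate 1 lay between the other libraries in those transcripts.

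The number of genes called changed when libraries that stood apart were left out. Whether those libraries affected direction cannot be judged from the 65 called genes, whose groups did not overlap. Leaving out both WT replicate 2 and KI replicate 1, a choice made after the data were seen, 122 genes were higher and 243 lower, and 54 of the 65 were called again. Among the 65, the KI library nearest the WT mean was replicate 1 for 30, replicate 2 for 19 and replicate 3 for 16. In simulated counts with the same library sizes, 34 of 97 genes changed 2-fold (35.1%) and 76 of 95 changed 4-fold (80.0%) were recovered, and 9 unchanged genes were called. In that setting a difference near 2-fold in a single gene was often not detected with 3 libraries per group. Counts were drawn gene by gene with no library standing apart, so the rates need not hold for these 6 libraries.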

How the data were processed

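RNA-seq of 6 libraries was compared, 3 per genotype, grouped by their titles. The authors deposited raw, unnormalized counts per gene, which per the file headers were taken over the coding part of 1 transcript for each gene. Per the submitters' processing notes, cutadapt 3.4, Bowtie 1.3.0 and UMI-tools 1.0.1 were used, in roles that are not stated. Neither the build and annotation, nor how reads were counted, nor how strand and multiple matches were handled, is given in the sources used here, so overlapping, antisense and near-identical genes are uncertain.

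Transcript identifiers were matched to GENCODE M21 (GRCm38, 22155 of 22416). Genes were kept by filterByExpr (minimum count 10), scaled by TMM, and tested two-sided with edgeR 4.0.16 (R 4.3.3, robust glmQLFit, 6 libraries, no covariate). Standard errors come from the F statistic. The test was tried on simulated data. Alternatives were DESeq2 1.42.0, limma-voom (limma 3.58.1), other scalings, filters and sample sets, a replicate block and each library left out. Of these, leaving out WT replicate 2 with KI replicate 1 was chosen after the data were seen.

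Members, the 51 gene lists, 6 marker lists and 39 symbol classes were chosen with earlier results of these data known, and no set test was run. Named genes were up to 14 called genes per direction by fold change, among those averaging 5 CPM or more without overlap between groups and not predicted genes; up to 3 called members per list; up to 12 called whichever library was left out; and fixed panels of eIF2 pathway and stem cell genes. Any other gene was picked with its values in view.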

Additional observations from a re-analysis of the deposited data

How the results depend on the processing

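The 65 called genes kept their direction in every alternative in which they were tested. Their groups did not overlap in the 6 libraries, so this outcome was all but fixed. Counts of higher and lower genes, 29 and 36, moved by over 1.5 times with DESeq2 (221 and 331), limma-voom (10 and 16), no filter on low counts (67 and 101), all 12 libraries in 1 fit (238 and 284), the same with the agreeing WT LIF pair averaged (129 and 165), a test against a 1.5-fold change (6 and 8), and without both WT replicate 2 and KI replicate 1 (122 and 243). Leaving out 1 library gave 2 to 325 higher and 6 to 453 lower genes. The cause was not tested. DESeq2's size factors, library totals alone and a minimum count of 30 kept both counts within 1.5 times. With the replicate number as a block, 6 genes were higher and 8 lower. Deviations of same-numbered WT and KI libraries correlated at 0.058, -0.095 and -0.065. Values from so few libraries cannot decide whether same-numbered libraries share a culture or batch, which the labels do not give. Without 1 library in turn, log2 fold changes ranged from -0.32 to 0.47 for Eif2s2, from -0.015 to 0.29 for Eif2s3x and from -0.016 to 0.25 for Ppp1r15b, none of them called; limma-voom gave -0.053 for Eif2s2. Of the list medians recomputed, 1515 moved by less than the spread between libraries and 100 by more. In the shallowest library, WT replicate 3, 3 counts equalled 0.914 CPM, which limits what can be said of genes near that level.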
